A study of Homo sapiens with 24 samples.

Results

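ATP-binding cassette (ABC) transporters use ATP to move molecules across membranes, and a subset of them pumps drugs and drug conjugates out of cells. The genes described here are the 9 drug efflux transporters ABCB1, ABCG2, ABCC1, ABCC2, ABCC3, ABCC4, ABCC5, ABCB6 and ABCB5, found by their exact symbols among the 28307 genes of the count table. All 9 symbols were present, each once. RNA was sequenced from SUM159, an established breast cancer line, and SW620, an established colon cancer line, each treated for 30 h with nifuroxazide (NIF), a nitrofuran antibiotic also known as an inhibitor of STAT3 signalling, or with its vehicle DMSO. After treatment the cells were sorted by the ALDEFLUOR assay into ALDHbr cells, with high aldehyde dehydrogenase activity and enriched in cancer stem cells, and ALDHneg cells, with low activity. This gave 8 groups of 3 libraries, 24 in all, numbered 1 to 3 within a group. Each tissue is represented by a single line, so that a difference between the lines is a difference between SUM159 and SW620 only. The final NIF concentration used for these libraries is not given in the sources used here.

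Cells eliminate drugs in steps: enzymes attach glutathione, glucuronide or sulfate, and transporters then export the conjugates. ABCB1 (P-glycoprotein) and ABCG2 (breast cancer resistance protein) carry many unmodified hydrophobic drugs, while the ABCC proteins, or multidrug resistance-associated proteins, prefer organic anions and conjugates. High efflux is a known trait of many stem cell populations, and ABCG2 is the transporter behind the dye-excluding side population. The fluorescent product used for the ALDEFLUOR sort can itself be exported by ABC transporters, and for that reason the assay is run with an efflux inhibitor.

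Library totals lay between 30253187 and 43127948 counts, with a median of 36520935. Summed over the 10 colon epithelial markers, levels were 2173 to 2825 CPM (a gene's count scaled to the library's TMM-adjusted total) in SW620 and 0.197 to 8.36 CPM in SUM159, and the 10 mesenchymal breast markers gave 9811 to 12889 CPM in SUM159 and 438 to 525 CPM in SW620. In SW620, 5 of those 10 mesenchymal markers were above 1 CPM, and the 5 blood cell markers summed to 1291 to 1671 CPM, nearly all of it from LYZ (lysozyme, 1286 to 1667 CPM), with PTPRC at no more than 0.0277 CPM. The 4 endothelial markers summed to at most 0.897 CPM in either line. ALDH1A1 was taken as a marker to check the sort. Under DMSO it was at 96.6 to 146 CPM in SUM159 ALDHbr and 0.392 to 0.513 CPM in SUM159 ALDHneg cells. In SW620 both populations expressed it under DMSO, at 1338 to 1429 CPM in ALDHbr and 936 to 978 CPM in ALDHneg cells. One library stood apart: over all genes tested in its line, SW620 ALDHbr DMSO replicate 2 lay a median of 0.20 log2 units from the mean of its group's other libraries, against 0.06 to 0.16 for the remaining 23. It was kept in the fits, and where leaving it out changed a member's call, the value without it is given.

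The promoters of the members whose levels moved furthest under NIF in SW620, and of the members carrying a STAT-type motif, are shown so that they can be set against the values below. Of the 9 members, 6 had at least 1 promoter window in the RefSeq table (GRCh38.p14), which holds 250 bases before and 50 after each annotated start. ABCC1, ABCC3 and ABCB5 had none, so that they could not be shown. The whole 300 bases were searched on both strands for TGACNNNGC, the core of the antioxidant response element bound by NRF2 (found in 13.3% of all 35116 promoter windows), GCGTG, the core of the xenobiotic response element bound by the aryl hydrocarbon receptor (36.5%), and TTCNNNGAA, the motif recognised by STAT proteins (7.66%). Only the 250 bases before the start are printed, 5′ to 3′ on the strand of the gene, with motif matches in capitals, and no match overlapped another in these 4 windows. ABCG2 had 5 windows, and the one that held the STAT motif was chosen. None of its other windows held a STAT motif, and some of them held xenobiotic response element cores.
ABCC2, chr10:99782390-99782639, plus strand: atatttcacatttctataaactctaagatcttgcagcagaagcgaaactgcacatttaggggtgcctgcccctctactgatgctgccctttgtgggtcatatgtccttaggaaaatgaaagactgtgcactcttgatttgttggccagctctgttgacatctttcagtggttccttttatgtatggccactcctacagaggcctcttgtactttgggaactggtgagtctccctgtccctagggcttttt
ABCB6, chr2:219218959-219219208, minus strand: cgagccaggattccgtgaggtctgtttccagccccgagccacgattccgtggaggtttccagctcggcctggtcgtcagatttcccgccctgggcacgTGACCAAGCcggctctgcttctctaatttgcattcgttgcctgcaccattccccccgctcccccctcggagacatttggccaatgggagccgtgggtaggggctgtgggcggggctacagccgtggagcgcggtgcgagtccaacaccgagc
ABCC5, chr3:184017885-184018134, minus strand: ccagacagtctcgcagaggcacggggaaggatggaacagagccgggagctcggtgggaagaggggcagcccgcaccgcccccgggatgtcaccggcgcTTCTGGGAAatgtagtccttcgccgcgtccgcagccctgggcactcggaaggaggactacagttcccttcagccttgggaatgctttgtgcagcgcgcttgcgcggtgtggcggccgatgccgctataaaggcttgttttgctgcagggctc
ABCG2, chr4:88159291-88159540, minus strand: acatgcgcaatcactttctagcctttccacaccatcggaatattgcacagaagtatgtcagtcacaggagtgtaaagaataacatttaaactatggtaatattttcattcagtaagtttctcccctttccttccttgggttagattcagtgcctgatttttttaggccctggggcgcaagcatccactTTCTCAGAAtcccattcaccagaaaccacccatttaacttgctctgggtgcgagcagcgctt

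The ABCC2 window held none of the 3 motifs. The ABCB6 window held an antioxidant response element core at position -152, counted from the annotated start. The ABCC5 window held a STAT motif at position -152, and a xenobiotic response element core at position 11, past the bases shown. The ABCG2 window held a STAT motif at position -62, and an antioxidant response element core at position 2, past the bases shown. A match of letters is a description and does not show that a factor bound there.

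Levels were first compared between genes as RPKM, that is CPM per kilobase of the gene's canonical transcript. In SUM159 ALDHbr cells under DMSO, ABCC3 (multidrug resistance-associated protein 3, an exporter of glucuronides and bile salts) was at 20.5 ± 2.44 RPKM (SD, n = 3) and ABCC1 (multidrug resistance-associated protein 1, an exporter of glutathione conjugates) at 16.8 ± 0.684 RPKM. ABCC4 (9.54 ± 0.480 RPKM) and ABCB6 (9.11 ± 0.291 RPKM) followed, and then ABCC5 (5.17 ± 1.17 RPKM), ABCC2 (4.62 ± 0.883 RPKM) and ABCG2 (3.67 ± 0.331 RPKM), while ABCB1 reached 0.292 ± 0.0451 RPKM and ABCB5 0.0212 ± 0.00314 RPKM. Libraries of neighbours in this order overlapped for ABCC4 and ABCB6, for ABCC5 and ABCC2, and for ABCC2 and ABCG2. With the union of all exons as the length, ABCC3 and ABCC1 exchanged places, and ABCC5 went from rank 5 to rank 7, below ABCC2 and ABCG2.

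SW620 had another order. ABCC3 was highest at 52.1 ± 4.48 RPKM in ALDHbr cells under DMSO, and ABCG2, near the bottom in SUM159, came next at 34.7 ± 1.08 RPKM. ABCC1 (20.0 ± 2.80 RPKM) and ABCC4 (16.8 ± 2.47 RPKM) overlapped between libraries, ABCB6 was at 11.1 ± 0.374 RPKM, and ABCC2 (1.55 ± 0.0980 RPKM) and ABCC5 (1.53 ± 0.229 RPKM) overlapped too. ABCB1 and ABCB5 were close to the limit of detection, with 1 to 7 and 1 to 5 reads per library over the 12 SW620 libraries.

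**Figure D1:**
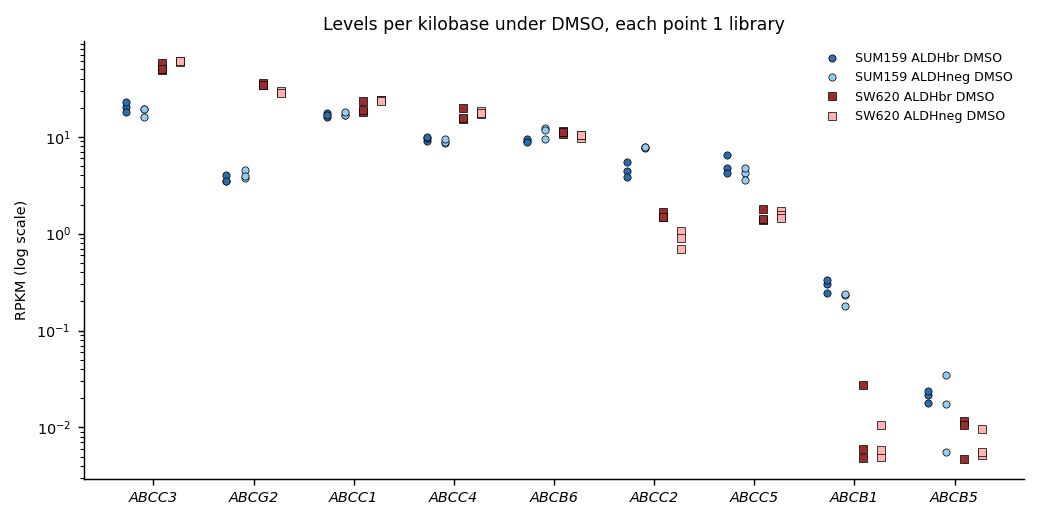
Level of each member in RPKM (log scale) under DMSO, with 1 point per library, circles for SUM159 and squares for SW620. ABCC3 leads in SW620 (52.1 RPKM in ALDHbr cells), ABCG2 is far higher in SW620 than in SUM159 (34.7 against 3.67 RPKM), and ABCB1 and ABCB5 are at the bottom in both lines.

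Tests were run across all genes with edgeR's quasi-likelihood F test, and p-values adjusted by Benjamini-Hochberg, calling a gene at an adjusted p under 0.05. Between untreated ALDHbr cells of the lines, all 8 members tested passed, 5 higher and 3 lower in SW620, in a comparison where 81.3% of all genes passed. One of the 3 was ABCB1, which was not tested in SW620 alone and entered this fit through its SUM159 reads. Since ABCB1 passed the filter only where it was high, its call as lower, here and in ALDHneg cells, carries no weight. It also counts among the 8 in the other comparisons between the lines. ABCG2 was 9.59-fold higher in SW620 (log2 fold change 3.26, SE 0.08, adjusted p = 9.72e-22). ABCC3 was 2.58-fold higher (1.37, SE 0.10) and ABCC4 1.79-fold higher (0.84, SE 0.09), whereas ABCC5 was 3.35-fold lower (-1.75, SE 0.15) and ABCC2 2.95-fold lower (-1.56, SE 0.15). In ALDHneg cells 7 of 8 passed, where 81.2% of all genes did, and ABCC2 was 8.69-fold lower in SW620 (-3.12, SE 0.16, adjusted p = 4.09e-15). Scaling by library size in place of TMM moved the median of all genes by 0.15 and 0.17 on the log2 scale in these comparisons, and with it ABCB6 (0.31 to 0.15, adjusted p = 0.125) and ABCC1 (0.26 to 0.11, adjusted p = 0.211) no longer passed between the ALDHbr cells of the lines. Without SW620 ALDHbr DMSO replicate 2 all 8 members still passed there, with ABCC1 at 0.15 (adjusted p = 0.0489).

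ABCB1, the classical multidrug resistance pump, was well detected in SUM159 only. Its counts were 55, 54 and 49 reads in the SUM159 ALDHbr DMSO libraries and 1, 1 and 5 reads in the SW620 ones, so that no fold is given. ABCB5, a transporter known from melanoma and limbal stem cells, had 0 to 8 reads per library in SUM159 and entered no test in either line. Gene bodies of ABCB1 and RUNDC3B overlap, as do those of ABCC5 and ABCC5-AS1, and since the strand setting of the counting is not given in the sources used here, their reads may be shared.

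**Figure D2:**
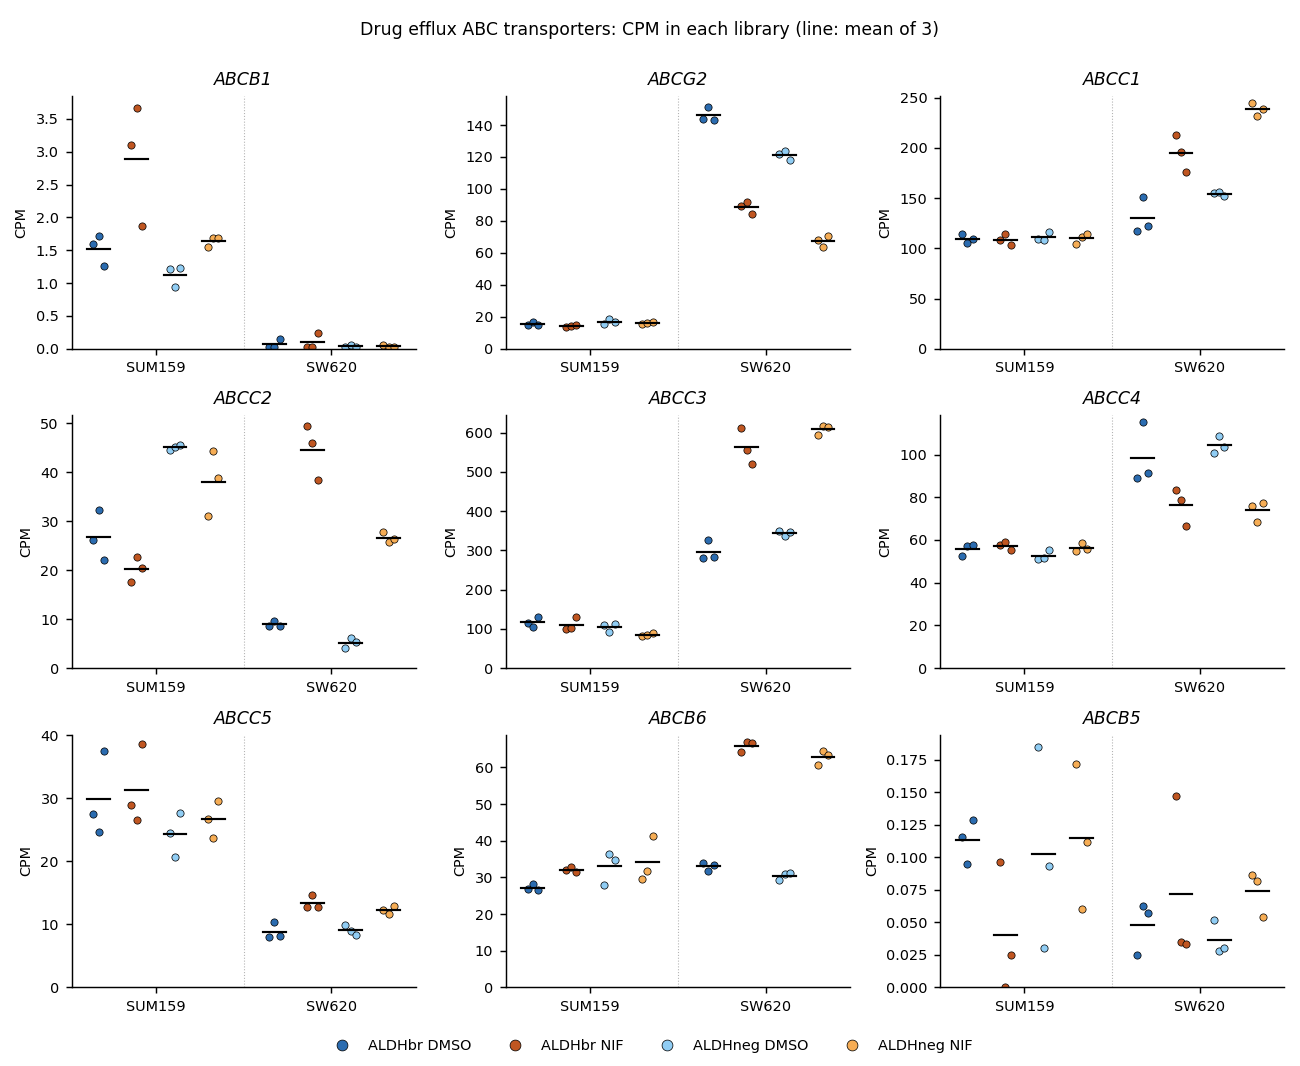
CPM of each member in each of the 24 libraries (linear axis from 0, points are libraries, horizontal lines are the means of 3), by line, sorted population and treatment. Under NIF the SW620 libraries rise for ABCC2, ABCC3, ABCB6, ABCC1 and ABCC5 and fall for ABCG2 and ABCC4, while SUM159 libraries of NIF and DMSO overlap for most members.

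NIF was then compared with DMSO within each sorted population. In SW620 all 7 members that could be tested changed under NIF in ALDHbr cells, 5 higher and 2 lower, where 43.3% of all genes changed. The same 7 changed in the same directions in ALDHneg cells, where 45.1% of all genes did. The median log2 fold change of the 7 was 0.58 in ALDHbr and 0.61 in ALDHneg cells, beside -0.007 and -0.0076 over all genes tested. Without SW620 ALDHbr DMSO replicate 2 all 7 kept their call in ALDHbr cells, with log2 fold changes of 2.36 for ABCC2, 0.99 for ABCC3, 0.95 for ABCB6, 0.72 for ABCC5, 0.69 for ABCC1, -0.25 for ABCC4 and -0.71 for ABCG2. Since RNA was taken from bulk populations, a change in the RNA of each cell and a change in the mix of cells within a sorted population cannot be told apart.

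ABCC2 (multidrug resistance-associated protein 2, which exports bilirubin glucuronides and glutathione conjugates at the apical membrane) rose most. In SW620 ALDHbr cells it was at 8.64, 9.64 and 8.68 CPM under DMSO and at 49.4, 46.0 and 38.5 CPM under NIF. In ALDHneg cells it was at 4.03, 6.23 and 5.26 CPM under DMSO and at 27.8, 25.8 and 26.4 CPM under NIF. All NIF libraries lay above all DMSO libraries in each population. The rise was 4.91-fold in ALDHbr cells (log2 fold change 2.29, SE 0.12, adjusted p = 4.17e-09) and 5.11-fold in ALDHneg cells (2.35, SE 0.13, adjusted p = 4.99e-09).

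ABCB6, which is known for porphyrin transport, rose about as far in both populations. Its level went from 34.0, 31.9 and 33.5 CPM to 64.1, 67.0 and 66.6 CPM in ALDHbr cells, and from 29.2, 30.9 and 31.1 CPM to 60.6, 64.4 and 63.5 CPM in ALDHneg cells. The groups were far apart compared with their spread, at 1.96-fold (0.97, SE 0.05, adjusted p = 7.47e-09) and 2.05-fold (1.03, SE 0.05, adjusted p = 3.3e-09).

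ABCC3, already the most abundant member, went from 280, 326 and 284 CPM to 612, 557 and 519 CPM in ALDHbr cells and from 348, 336 and 347 CPM to 594, 618 and 615 CPM in ALDHneg cells. No DMSO library reached the lowest NIF library. The folds were 1.87 (0.90, SE 0.07, adjusted p = 1.13e-07) and 1.75 (0.81, SE 0.07, adjusted p = 2.68e-07). Of the CPM summed over the 9 members, ABCC3 took 41.0% to 41.1% in SW620 ALDHbr DMSO libraries and 53.0% to 54.4% in the NIF libraries.

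ABCC1 and ABCC5 rose less. ABCC1 was at 117, 151 and 122 CPM under DMSO and 213, 196 and 175 CPM under NIF in ALDHbr cells, a 1.48-fold rise (0.57, SE 0.09, adjusted p = 0.000108), and rose 1.53-fold in ALDHneg cells (0.61, SE 0.08, adjusted p = 4.47e-05). The DMSO value of 151 CPM belongs to replicate 2, and without this library the ALDHbr rise of ABCC1 was 0.69 (adjusted p = 6.13e-07). ABCC5, an exporter of cyclic nucleotides and nucleotide analogues, went from 7.98, 10.4 and 8.17 CPM to 12.7, 14.7 and 12.8 CPM in ALDHbr cells (0.58, SE 0.11, adjusted p = 0.000509), and by 0.41 in ALDHneg cells (SE 0.10, adjusted p = 0.00516).

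ABCG2 and ABCC4 fell. ABCG2 was at 144, 151 and 143 CPM under DMSO and 89.6, 91.7 and 84.5 CPM under NIF in ALDHbr cells. In ALDHneg cells it was at 122, 124 and 118 CPM under DMSO and 67.9, 63.8 and 70.3 CPM under NIF. Neither population showed any overlap between treatments, and the falls were 1.67-fold (-0.74, SE 0.05, adjusted p = 8.76e-08) and 1.82-fold (-0.86, SE 0.05, adjusted p = 1.68e-08). ABCG2 thereby passed from 19.0% to 21.1% of the members' summed CPM in ALDHbr cells to 7.97% to 8.76%. Per kilobase of the canonical transcript ABCG2 dropped from the next level below ABCC3 to a level near that of ABCB6 (21.1 ± 0.881 against 22.1 ± 0.517 RPKM under NIF). With the union of all exons as the length, ABCG2 stayed above ABCB6 under NIF (15.8 against 12.7 RPKM).

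ABCC4, which exports cyclic AMP, prostaglandins and nucleoside drugs, was at 89.1, 115 and 91.5 CPM under DMSO and 83.6, 78.9 and 66.7 CPM under NIF in ALDHbr cells. In ALDHneg cells it was at 101, 109 and 104 CPM under DMSO and 76.0, 68.5 and 77.3 CPM under NIF. The highest ALDHbr value was again that of DMSO replicate 2, and the gap between the treatments was narrower without it. The fall was 1.31-fold in ALDHbr cells (-0.39, SE 0.10, adjusted p = 0.0056), or -0.25 (adjusted p = 0.0186) without that library, and 1.42-fold in ALDHneg cells (-0.51, SE 0.10, adjusted p = 0.000674).

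**Figure D3:**
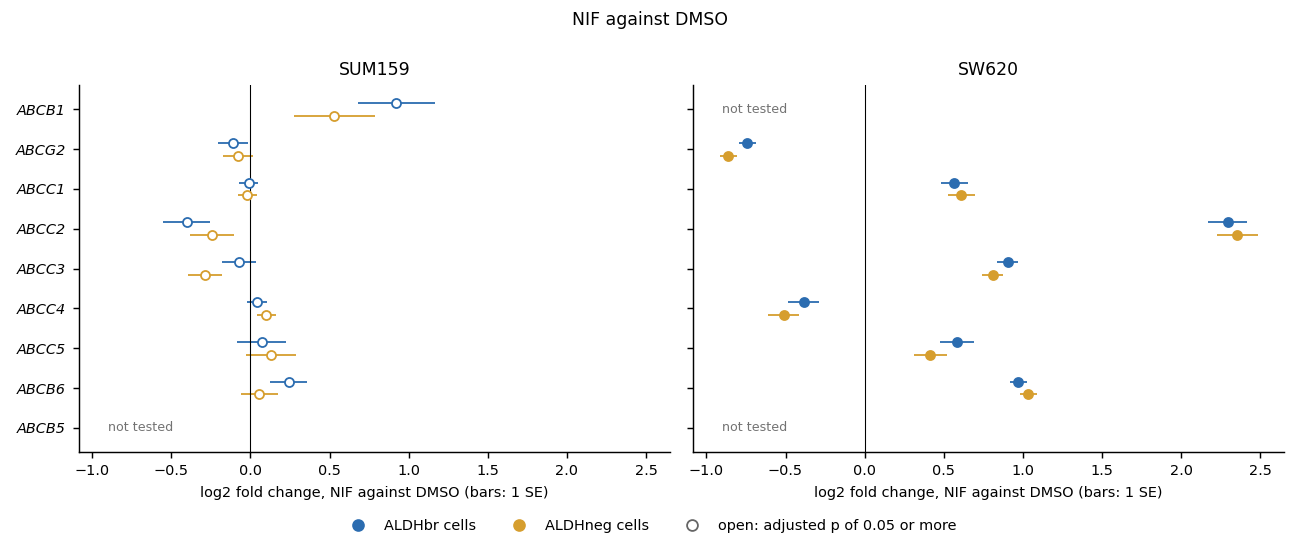
Log2 fold change of NIF against DMSO for each member in SUM159 (left) and SW620 (right), on the same axis, with bars of 1 SE, blue for ALDHbr and yellow for ALDHneg cells, and filled points for an adjusted p under 0.05. All SW620 points are filled, from -0.86 (ABCG2, ALDHneg) to 2.35 (ABCC2, ALDHneg), and all SUM159 points are open. The points are from the fit without the replicate number as a block.

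In SUM159 none of the 8 members tested passed the threshold under NIF, in ALDHbr cells (3.16% of all genes passed) or in ALDHneg cells (3.3%). At an unadjusted p under 0.05 there were 2 in ALDHbr cells and 1 in ALDHneg cells. DESeq2 called 1 and 0 members, beside 875 and 862 of all genes. Same-numbered SUM159 libraries deviated alike from their group means and were taken as pairs, though the sources used here do not state such pairing. With the replicate number as a block, 2 members passed in ALDHbr cells, where 13.3% of all genes did, and 1 in ALDHneg cells, where 13.2% did. The median log2 fold change of the 8 was 0.02 in each population, beside -0.0029 and 0.0033 over all genes.

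ABCB1, the pump of many hydrophobic anticancer drugs, had the largest difference. In SUM159 ALDHbr cells it was at 1.59, 1.71 and 1.26 CPM under DMSO (49 to 55 reads) and 3.11, 3.67 and 1.87 CPM under NIF (76 to 129 reads). The groups did not overlap, and the NIF library was higher in 3 of 3 same-numbered pairs, by 1.49 to 2.14 times. The log2 fold change was 0.92 (SE 0.24) with an adjusted p of 0.0537, and with the block it was 0.91 with an adjusted p of 0.00731. Without NIF replicate 3, the lowest of its group, it was 1.16 (adjusted p = 0.0108), and over all alternatives it ranged from 0.72 to 1.16, with adjusted p-values of 0.00731 to 0.21. In ALDHneg cells ABCB1 was at 1.22, 0.934 and 1.24 CPM under DMSO and 1.54, 1.69 and 1.68 CPM under NIF, a difference of 0.53 (SE 0.26, adjusted p = 0.316, and 0.167 with the block).

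ABCC2, which rose in SW620, showed no rise in SUM159, and passed as lower only with the block in ALDHbr cells. SUM159 ALDHbr cells held 26.1, 32.3 and 22.1 CPM under DMSO and 17.6, 22.7 and 20.4 CPM under NIF, which overlap, but the NIF value was lower in 3 of 3 pairs. The difference of -0.40 (SE 0.15) had an adjusted p of 0.158, and of 0.00798 with the block. In ALDHneg cells the ABCC2 difference was -0.24 (SE 0.14, adjusted p = 0.422, and 0.0613 with the block). ABCC3 in ALDHneg cells was at 111, 91.0 and 112 CPM under DMSO and 82.9, 83.6 and 90.5 CPM under NIF, lower in 3 of 3 pairs. Its difference of -0.29 (SE 0.11) had an adjusted p of 0.177, and of 0.00342 with the block. In ALDHbr cells the ABCC3 difference was -0.07 (SE 0.11, adjusted p = 0.798, and 0.472 with the block). ABCC1 gave -0.01 (SE 0.06) in ALDHbr and -0.02 (SE 0.06) in ALDHneg cells, and ABCC4, ABCC5, ABCB6 and ABCG2 had adjusted p-values of 0.317 to 0.874 over both populations. For ABCB6 in ALDHbr cells the treatments did not overlap, and NIF was higher in 3 of 3 pairs, by 1.17 to 1.19 times. Its difference was 0.24 (SE 0.12), with an adjusted p of 0.0781 with the block. In ALDHneg cells ABCB6 was higher in 2 of 3 pairs.

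Whether NIF acted differently on the lines was tested directly, in a fit of all 24 libraries. The NIF effect differed for 6 of 8 members in ALDHbr cells (23.1% of all genes differed) and for 6 of 8 in ALDHneg cells (22.4%), 4 of them higher and 2 lower in SW620 in each population. For ABCC2 the effects were apart by 2.70 on the log2 scale in ALDHbr cells (SE 0.21, adjusted p = 1.07e-09) and by 2.60 in ALDHneg cells (SE 0.21, adjusted p = 2.34e-09). ABCC3, ABCB6 and ABCC1 responded more upward in SW620, by 0.97, 0.73 and 0.57 in ALDHbr cells, and ABCG2 more downward, by -0.63 (SE 0.11, adjusted p = 9.13e-05). ABCC4 also differed, by -0.43 (SE 0.12, adjusted p = 0.0112), but without SW620 ALDHbr NIF replicate 3 its adjusted p was 0.0521.

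ABCC5 did not pass in ALDHbr cells (0.51, SE 0.21, adjusted p = 0.081). With the block it passed (adjusted p = 0.00461), where 26.9% of all genes did. It also passed without SUM159 ALDHbr NIF replicate 3 (0.71, adjusted p = 0.0168), without SUM159 ALDHbr DMSO replicate 2 (0.62, adjusted p = 0.0347) and without SW620 ALDHbr DMSO replicate 2 (0.63, adjusted p = 0.0296). Over all alternatives it ranged from 0.33 to 0.71, with adjusted p-values of 0.00461 to 0.29. ABCB1 could not be compared usefully, since its difference of -0.40 had an SE of 0.91 and rested on 1 to 7 reads in SW620.

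The NIF effect was then compared between the sorted populations of each line. In SUM159 no member had a different NIF effect in ALDHbr and ALDHneg cells, with 0% of all genes passing, and all 8 members had an adjusted p of 1. In SW620 again no member passed, with 0.00717% of all genes (1 gene) passing. Neither line had a member at an unadjusted p under 0.05, and DESeq2 called 0 in both. The SE of these differences in SUM159 was largest for ABCB1 (0.39, SE 0.35) and smallest for ABCC1 (0.01, SE 0.09).

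Levels in ALDHbr and ALDHneg cells were next compared within each line. In SUM159 under DMSO only ABCC2 passed, where 23% of all genes did. It was at 26.1, 32.3 and 22.1 CPM in ALDHbr and 44.5, 45.1 and 45.5 CPM in ALDHneg cells, with no overlap and lower in 3 of 3 pairs. This made it 1.68-fold lower in ALDHbr cells (-0.75, SE 0.14, adjusted p = 0.00128). With the block 3 members passed, where 36% of all genes did: ABCC2, ABCC5 (0.29, adjusted p = 0.00196) and ABCB6 (-0.28, adjusted p = 0.0174). Without SUM159 ALDHneg DMSO replicate 1, ABCB6 also passed in the fit without the block (-0.39, adjusted p = 0.0311).

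Under NIF 3 members passed in SUM159, where 21.9% of all genes did. ABCC2 was again lower in ALDHbr cells, by 1.88-fold (-0.91, SE 0.14, adjusted p = 0.000296), ABCB1 was 1.75-fold higher (0.81, SE 0.24, adjusted p = 0.0245) and ABCC3 1.29-fold higher (0.37, SE 0.11, adjusted p = 0.0225). With the block ABCC5 joined them (0.22, adjusted p = 0.0125), where 35.2% of all genes passed. The ABCB1 call was lost without ALDHbr NIF replicate 1 (adjusted p = 0.0774) or 2 (0.115), and without ALDHneg NIF replicate 1 (0.0898), 2 (0.051) or 3 (0.0566). The ABCC3 call was lost without ALDHbr NIF replicate 3 (0.122), without ALDHneg NIF replicate 1 (0.0887) or 2 (0.0645), and with library-size scaling (0.061). ABCC3 was at 99.1, 102 and 131 CPM in ALDHbr and 82.9, 83.6 and 90.5 CPM in ALDHneg cells, so that replicate 3 carried the largest gap.

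In SW620 the direction for ABCC2 was the opposite. Under DMSO it was 1.75-fold higher in ALDHbr than in ALDHneg cells (0.81, SE 0.14, adjusted p = 0.00193), and ABCG2 was 1.21-fold higher (0.28, SE 0.05, adjusted p = 0.00418), the only 2 of 7 members to pass, where 11.3% of all genes did. Under NIF the same 2 passed, where 6.67% did, ABCC2 at 1.68-fold (0.75, SE 0.11, adjusted p = 0.000914) and ABCG2 at 1.32-fold (0.40, SE 0.05, adjusted p = 0.00038). No ALDHneg library reached the lowest ALDHbr library for either gene under either treatment.

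One library decided how many more members differed between the SW620 populations under DMSO. Without SW620 ALDHbr DMSO replicate 2, 5 of 7 members passed, since ABCC1 (-0.37, adjusted p = 0.000998) and ABCC3 (-0.28, adjusted p = 0.0023) were then lower and ABCB6 (0.15, adjusted p = 0.0439) higher in ALDHbr cells. With it, ABCC1 was at -0.24 (adjusted p = 0.0794), ABCC3 at -0.20 (0.0618) and ABCB6 at 0.14 (0.115). Without this library the number of all genes passing also went from 1577 to 5487.

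**Figure D4:**
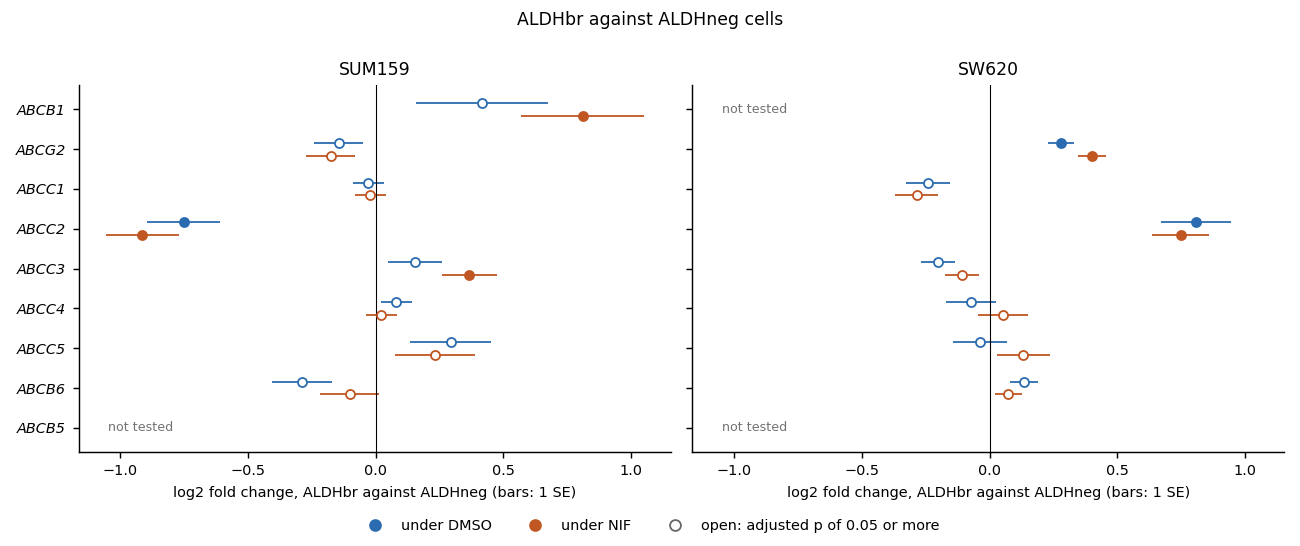
Log2 fold change of ALDHbr against ALDHneg cells for each member in SUM159 (left) and SW620 (right), on the same axis, with bars of 1 SE, blue under DMSO and orange under NIF, and filled points for an adjusted p under 0.05. ABCC2 lies at -0.75 and -0.91 in SUM159 and at 0.81 and 0.75 in SW620.

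The difference between the lines in these population differences was tested after the values had been seen. Under DMSO it passed for 3 of 8 members, where 19.1% of all genes passed: ABCC2 (1.56, SE 0.22, adjusted p = 1.19e-05), ABCG2 (0.42, SE 0.10, adjusted p = 0.00556) and ABCB6 (0.42, SE 0.14, adjusted p = 0.0306). With the block ABCC3 passed as well (-0.36, adjusted p = 0.0164), where 23.6% of all genes did. Under NIF it passed for ABCC2 (1.65, SE 0.20, adjusted p = 1.54e-06), ABCG2 (0.57, SE 0.11, adjusted p = 0.000472) and ABCC3 (-0.49, SE 0.13, adjusted p = 0.0163), where 13.6% of all genes passed.

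The ABCC2 and ABCG2 differences held with each library left out. The ABCB6 difference under DMSO was lost (adjusted p = 0.0527 to 0.1) without SUM159 ALDHbr DMSO replicate 1 or 3, SUM159 ALDHneg DMSO replicate 2 or 3, SW620 ALDHbr DMSO replicate 1 or 3, or SW620 ALDHneg DMSO replicate 1 or 2. Without SW620 ALDHbr DMSO replicate 2, 5 members passed, with ABCC1 (-0.33, adjusted p = 0.0115) and ABCC3 (-0.42, adjusted p = 0.022) added. The number of all genes passing then went from 3103 to 4586. ABCC3 under DMSO also passed without SUM159 ALDHbr DMSO replicate 2 (-0.43, adjusted p = 0.0359). The ABCC3 difference under NIF was lost without SUM159 ALDHbr NIF replicate 3 (adjusted p = 0.0815), SW620 ALDHbr NIF replicate 3 (0.0577) or SUM159 ALDHneg NIF replicate 1 (0.053), and with library-size scaling (0.0635).

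Other genes of drug handling in SW620 are given for context, where NIF changed 43.3% of all genes in ALDHbr and 45.1% in ALDHneg cells. Of 39 other ABC genes 29 were tested, and NIF raised 7 and lowered 5 in ALDHbr cells (41.4%, median 0.03) and raised 8 and lowered 6 in ALDHneg cells (48.3%, median 0.03). ABCG1, a cholesterol exporter, rose by 1.97 (SE 0.08, adjusted p = 3.31e-10) and 2.35 (SE 0.08, adjusted p = 3.04e-11). CFTR, the chloride channel of the ABCC subfamily, was the lowest in ALDHneg cells at -1.47 (SE 0.11), and ABCB4, the phosphatidylcholine transporter of bile, in ALDHbr cells at -1.24 (SE 0.37) with a mean of 0.202 against 0.484 CPM.

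**Figure D5:**
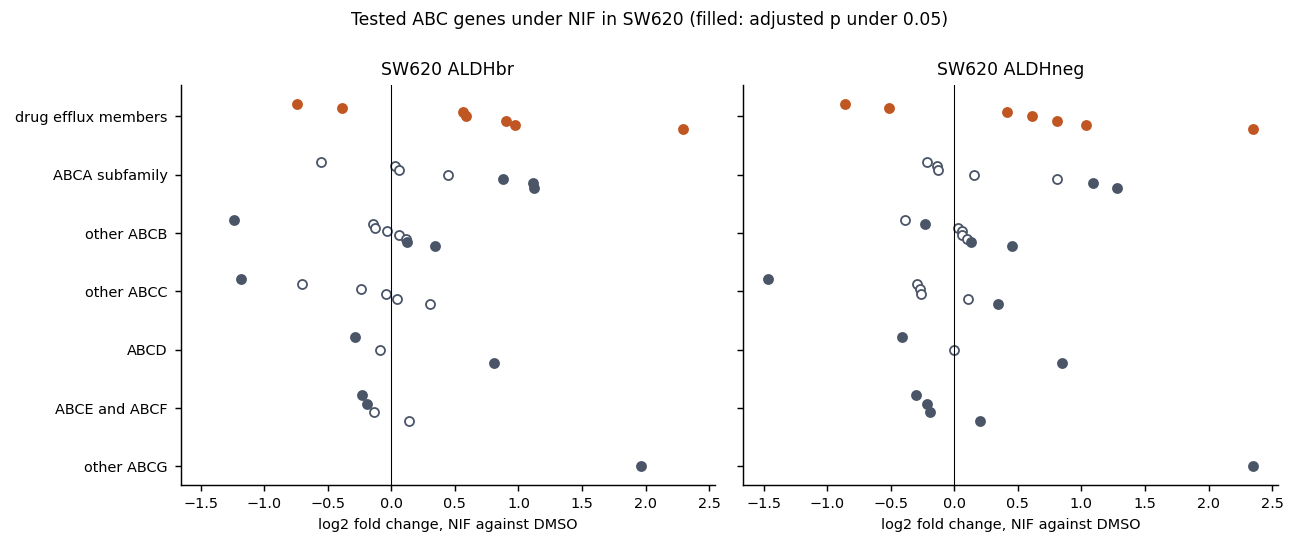
Log2 fold change of NIF against DMSO in SW620 ALDHbr (left) and ALDHneg cells (right), on the same axis, for the 7 tested drug efflux members (orange) and the 29 other tested ABC genes by subfamily (grey), with filled points for an adjusted p under 0.05. ABCC2 (2.29 and 2.35) and ABCG1 (1.97 and 2.35) lie furthest to the right.

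A list of genes of glutathione conjugation, glucuronidation and sulfation, called conjugation enzymes here, was tested as well. Not every gene of this list makes a conjugate. Of 21 conjugation enzymes tested in SW620, 10 rose and 2 fell in each population (57.1%). Of all genes 43.3% changed in ALDHbr and 45.1% in ALDHneg cells. GCLM, the modifier subunit of the enzyme that starts glutathione synthesis, rose by 1.72 (SE 0.05) in ALDHbr and 1.69 (SE 0.05) in ALDHneg cells. UGT8 (-0.35, SE 0.06, in ALDHbr cells) and UGT2B7 (-1.23, SE 0.36, in ALDHneg cells, with a mean of 0.214 against 0.498 CPM) were lowest. Of 16 xenobiotic sensors and regulators 7 rose and 1 fell in ALDHbr cells (50%), and 7 rose and 2 fell in ALDHneg cells (56.2%). MAFG, a small MAF partner of NRF2, was highest at 0.86 and 0.92 (SE 0.05 each), with RXRA lowest in ALDHbr cells (-0.16, SE 0.04) and NR1I2, the pregnane X receptor, in ALDHneg cells (0.0730 against 0.249 CPM).

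Carriers outside the ABC family moved in both directions. Of 18 tested in SW620, NIF raised 8 and lowered 4 in ALDHbr cells and raised 7 and lowered 5 in ALDHneg cells (66.7% each). The share of all genes was 43.3% in ALDHbr and 45.1% in ALDHneg cells. SLC22A4, an organic cation and ergothioneine carrier, was highest at 1.71 (SE 0.21) and 1.35 (SE 0.19), and SLC28A3, a concentrative nucleoside carrier, lowest at -1.34 (SE 0.17) and -1.47 (SE 0.17).

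The same lists were counted under NIF in SUM159, where 3.16% of all genes passed in ALDHbr and 3.3% in ALDHneg cells. Of 30 other ABC genes 3 passed in ALDHbr cells (10%) and 2 in ALDHneg cells (6.67%), with ABCA6, a lipid transporter, lowest in both (-0.95, SE 0.16, and -1.03, SE 0.18) and ABCF3 highest in ALDHneg cells (0.23, SE 0.06). Of 19 conjugation enzymes 4 passed in each population (21.1%), with UGDH, which makes UDP-glucuronic acid, highest (0.62 and 0.52, SE 0.10 each) and UGT2B7 lowest (-0.92, SE 0.14 each). Of 15 sensors and regulators only NFE2L2, which encodes NRF2, passed, and it was lower (-0.44 and -0.37, SE 0.07 each). Of 17 other carriers 0 passed in the edgeR test in either population, with 1 at an unadjusted p under 0.05 in each, and DESeq2 called 1 in ALDHbr and 0 in ALDHneg cells. With the replicate block 5 and 7 other ABC genes, 6 and 5 conjugation enzymes, 6 and 4 sensors, and 1 and 1 carriers passed in ALDHbr and ALDHneg cells, where 13.3% and 13.2% of all genes did.

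The genes most like the 3 most abundant members were found by the Pearson correlation of log2 CPM centred on each line's mean, over 24 libraries and among 12780 genes tested in both lines. These libraries share lines, treatments and sorts, so the values describe co-variation only. ABCC3 was most like SLC38A2 (r = 0.95), LRP8 (0.95) and ETV5 (0.95). ABCC1 was most like PLEC, SPTBN1 and FLNA (r = 0.97 to 0.98), and ABCC4 like TFRC, TRIM2 and ACLY (r = 0.93 to 0.95). In the 12 SW620 libraries alone r was 0.96 to 0.99 for these 9 pairs, and in the 12 SUM159 libraries it was 0.26 to 0.85.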

How the data were processed

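RNA of SUM159 and SW620 cells was sequenced as 24 total RNA libraries made with a stranded kit. The authors deposited a table of raw counts for each gene and library, with no normalization. The submitters' processing notes name FastQC, STAR and GRCh38, while the counting tool, its strand setting and the annotation are not given in the sources used here. Coordinates and promoters come from RefSeq (GRCh38.p14), and transcript lengths from GENCODE.

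The tests used edgeR 4.0.16 under R 4.3.3, with filterByExpr, TMM and the quasi-likelihood F test. P-values were adjusted over all genes tested by the Benjamini-Hochberg method, and called under 0.05. Each line was fitted apart (12 libraries, 4 groups), and contrasts between lines used all 24 libraries in 8 groups. CPM values use TMM-adjusted library sizes, correlations log2 CPM with a prior count of 2, and SE is the log2 fold change over the square root of F. Comparisons in 1 line share libraries.

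All 9 members are named, and of each list the highest and lowest called gene, except 1 that is not reported here. The members, lists and rules were chosen with earlier results of these data known. LYZ and PTPRC were named after their values were seen.

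The study describes 3 independent experiments, and the sources used here do not say that a replicate number marks the same experiment across groups. Deviations from group means correlated above 0.1 in 12 of 12 SUM159 pairs (r = 0.182 to 0.453), which is taken as pairing. The tests were fitted without a block, and the fit with the replicate number as a block is given beside SUM159 results where it changes a call. Replicate libraries differed by more than sampling noise (chi-square per gene of at least 1.95 over 24 pairs). Counts of 30253187 to 43127948 per library give members with few reads wide errors.

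Alternatives were scaling by RLE or by library size, DESeq2 1.42.0, a fit without the filter, at least 10 counts in every library, only the groups compared, all 24 libraries, a replicate block and each library left out. The steps were tested on simulated counts.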

Additional observations from a re-analysis of the deposited data

Results flagged for a closer look

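The 18 results given here are differences between SUM159 and SW620 in an effect of treatment or sort, each by a test of the difference itself in the edgeR fit of all 24 libraries, as SW620 minus SUM159 on the log2 scale. For the NIF effect in ALDHbr cells they were ABCC2 at 2.70, ABCC3 at 0.97, ABCB6 at 0.73, ABCC1 at 0.57, ABCC4 at -0.43 and ABCG2 at -0.63. For the NIF effect in ALDHneg cells they were ABCC2 at 2.60, ABCC3 at 1.10, ABCB6 at 0.99, ABCC1 at 0.64, ABCC4 at -0.60 and ABCG2 at -0.77. Of all genes, 23.1% differed in the NIF effect in ALDHbr cells and 22.4% in ALDHneg cells. The ABCC4 call in ALDHbr cells was lost in 1 of 18 alternatives.

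For the difference of ALDHbr from ALDHneg cells under DMSO they were ABCC2 at 1.56, ABCG2 at 0.42 and ABCB6 at 0.42. For the same difference under NIF they were ABCC2 at 1.65, ABCG2 at 0.57 and ABCC3 at -0.49. Of all genes, 19.1% differed so under DMSO and 13.6% under NIF, and these 2 comparisons were chosen after the values had been seen. The ABCB6 call was lost in 8 of 18 alternatives, and the ABCC3 call in 4 of 18. The largest of the flagged results concern ABCC2, which NIF raised in SW620 and which lay in opposite order between the sorted populations of the lines. The 2 lines differ in tissue, and in whether ALDHneg cells carry ALDH1A1 RNA (0.392 to 0.513 CPM in SUM159 and 936 to 978 CPM in SW620 under DMSO). The part of either in these differences was not tested, and with 1 line of each tissue they cannot be told apart.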

How the results depend on the processing

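For the 63 comparisons of single members called in the fit without or with the replicate block, 930 alternative values were computed. Of these 886 kept direction and side of the threshold, 24 lost a call, 20 gained one and 0 changed direction. Members called in neither fit are not among these, such as ABCC1, which passed in SW620 ALDHbr against ALDHneg cells under DMSO without ALDHbr DMSO replicate 2. All 7 SW620 members kept their call under NIF in both populations under every alternative run. The number of members called in SUM159 ALDHbr cells under NIF was 0, and was 2 with the replicate block, 1 with DESeq2, 1 without a filter, 1 with at least 10 counts in every library, and 0 to 1 with a library left out. All genes called there numbered 473, and in the same order 1994, 875, 654, 498 and 222 to 322. In SUM159 ALDHneg cells under NIF the number of members called was 0, and 1 with the block, beside 493 and 1970 of all genes. For ALDHbr against ALDHneg cells in SUM159 the number of members called was 1 under DMSO, 3 with the block, 2 in the fit of all 24 libraries and 1 to 2 with a library left out, and under NIF it was 3, and 1 to 2 with a library left out. All genes called there numbered, in the same order, 3432, 5388, 3680 and 2543 to 3136 under DMSO, and 3281 and 2371 to 2951 under NIF. In SW620 under DMSO the number of members called was 2, and 2 to 5 with a library left out (5 without ALDHbr DMSO replicate 2). All genes called there numbered 1577, and 712 to 5487 with a library left out (5487 without ALDHbr DMSO replicate 2). For the difference between lines in that comparison the number of members called was 3, and 2 to 5. All genes called there numbered 3103, and 2154 to 4586 with a library left out. The cause of these changes was not tested. In SW620 the replicate numbers shared only a number (1 of 12 pairs above 0.1, r = -0.276 to 0.213), and the block left the members' counts at 7, 7, 2 and 2. Leaving out a library leaves 2 in its group. Depth limits ABCB5 in both lines and ABCB1 in SW620, which had 0 to 8 reads.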

Other observations

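Between ALDHbr and ALDHneg cells, 23% of all genes passed in SUM159 under DMSO and 21.9% under NIF, and 11.3% and 6.67% in SW620. Of the ABC genes outside the drug efflux group that passed in SUM159 under DMSO, ABCG1 had the highest and ABCA3 the lowest log2 fold change. ABCG1, a cholesterol exporter, was at a mean of 11.7 CPM in ALDHbr and 0.703 CPM in ALDHneg cells under DMSO (log2 fold change 4.05, SE 0.29, adjusted p = 1.03e-07), and ABCA3, which loads lipids into lamellar bodies, at 2.02 and 18.0 CPM (-3.15, SE 0.16, adjusted p = 4.36e-09). Under NIF the differences were 3.68 and -3.40. Of 30 other ABC genes 10 differed under DMSO (33.3%) and 8 under NIF (26.7%). In SW620 6 of 29 differed under DMSO (20.7%), with ABCC6 highest (1.32, SE 0.34) and TAP1, a peptide transporter of antigen presentation, lowest (-0.53, SE 0.08), and 4 of 29 under NIF (13.8%), with CFTR highest (1.12, SE 0.11) and TAP1 lowest (-0.72, SE 0.08).

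Of the sensors and regulators, 6 of 15 differed between the SUM159 populations under DMSO (40%) and 4 of 15 under NIF (26.7%), beside 23% and 21.9% of all genes. RXRA, the retinoid X receptor, was highest in both (0.63 and 0.60, SE 0.05 each), with NR1H3 lowest under DMSO (-0.36, SE 0.12) and HIF1A under NIF (-0.42, SE 0.07). In SW620 2 of 16 differed under each treatment (12.5%), where 11.3% of all genes did under DMSO and 6.67% under NIF. HIF1A was lowest under DMSO (-0.34, SE 0.09) with no gene higher, and under NIF NR1I2 was higher (0.408 against 0.0730 CPM) and FOXO3 lower (-0.40, SE 0.09) in ALDHbr cells.

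Of the conjugation enzymes, 5 of 19 differed in SUM159 under DMSO (26.3%) and 3 of 19 under NIF (15.8%), beside 23% and 21.9% of all genes. UGT8 was highest (1.16, SE 0.25, and 1.64, SE 0.26), with GSTZ1 lowest under DMSO (-0.44, SE 0.12) and GSTM4 under NIF (-0.61, SE 0.12). In SW620 2 of 21 and 3 of 21 differed, beside 11.3% and 6.67% of all genes. All were higher in ALDHbr cells, led by GSTP1 under DMSO (0.34, SE 0.09) and UGT2B7 under NIF (0.545 against 0.214 CPM). Of the other carriers, 3 of 17 and 4 of 17 differed in SUM159 (17.6% and 23.5%), beside 23% and 21.9% of all genes. SLC47A1 was highest (0.707 against 0.0565 CPM under DMSO and 0.907 against 0.0429 CPM under NIF) and SLCO1B3 lowest under NIF (0.153 against 0.633 CPM). In SW620 3 of 18 and 5 of 18 differed, beside 11.3% and 6.67% of all genes. SLC22A18 was highest under DMSO (0.29, SE 0.08), ATP7B, a copper exporter, highest under NIF (0.43, SE 0.11), and SLCO3A1 lowest under both (-0.68, SE 0.09, and -0.45, SE 0.10). With the replicate block the SUM159 counts under DMSO and NIF were 16 and 15 other ABC genes, 7 and 9 sensors, 5 and 7 conjugation enzymes, and 7 and 7 carriers, where 36% and 35.2% of all genes passed.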
